A study of Mus musculus with 8 samples.

Results

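Trip4 and Ubqln2 are 2 of the 3160 genes in the deposited table. They were chosen by symbol, and picked for a strong fall of the Rpl10a-IP to input ratio in ELA cells, so the values of that ratio describe them and were not tested. The cells were of the murine embryonic stem cell line E14Tg2A. ES cells (0 days in vitro) grew on gelatin in medium with serum and LIF, and epiblast-like aggregate (ELA) cells had spent 2 days as floating aggregates in a chemically defined minimal medium with N2/B27, without serum or LIF. All cells received cycloheximide, which stalls ribosomes, before lysis. Lysate RNA (input, total RNA) and RNA pulled down by an antibody against the endogenous large subunit protein Rpl10a (Rpl10a-IP, ribosome-bound RNA) were sequenced at both stages, with 2 replicates in each of the 4 groups. Both genes behaved alike: from ES to ELA cells their total RNA rose about 5-fold (5.01-fold for Trip4 and 4.71-fold for Ubqln2), while their ribosome-bound RNA stayed within 1.18-fold of its ES level.

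Trip4 encodes ASC-1, a transcriptional coactivator of nuclear receptors and the zinc finger subunit of the ASC-1 complex. With Ascc1, Ascc2 and the helicase Ascc3 it takes part in splitting collided ribosomes during ribosome-associated quality control, and it is a substrate of UFMylation, the attachment of the small modifier Ufm1. Ubqln2 encodes ubiquilin 2, which carries a ubiquitin-like (UBL) domain that docks on the proteasome and a ubiquitin-associated (UBA) domain that binds ubiquitin chains. Ubiquilins shuttle misfolded clients to degradation, and UBQLN2 is mutated in families with amyotrophic lateral sclerosis and frontotemporal dementia.

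Trip4 lies at chr9:65828926-65908875 (GRCm38.p6, minus strand), and the longest model of the gene annotation used here has 16 exons. Pclaf, which encodes a PCNA-binding factor, lies inside the Trip4 span on the opposite strand and shares 0 exonic bases with it. The annotated span of Csnk1g1, a casein kinase gene on the other strand, begins 93 bp from that of Trip4. The 92 bases between both gene spans are shown because they separate this divergent pair. They are read on the Trip4 strand, with capitals marking the ETS core CGGAAG or its reverse complement CTTCCG, and come from RefSeq start windows:
chr9:65908876-65908967: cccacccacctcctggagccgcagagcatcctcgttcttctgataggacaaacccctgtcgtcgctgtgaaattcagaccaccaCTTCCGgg
The 300-base RefSeq window that contains them (chr9:65908745-65909044) runs from 250 bases before to 50 after a Trip4 start that lies inside the gene span, and it holds 3 such matches over both strands. The window of a second annotated Trip4 start (chr9:65885124-65885423) holds 1. Of 32851 mouse start windows of the same length, 16.9% hold at least 1 match and 1.03% hold 3 or more, and a match is a description of the letters only. The window has 59.0% GC and 16 CpG dinucleotides, against a median of 7 over all windows. Of 3 other motifs searched on both strands, the GC box GGGCGG (in 35.7% of windows) had 1 match in each Trip4 window and the CCAAT box (in 37.4%) had 0. The TATA box TATAAA (in 13.6%) had 0 in the first window and 1 in the second.

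Ubqln2 lies at chrX:153498232-153501562 (GRCm38.p6) and has 1 exon. The authors' mapping allowed a read up to 2 hits, so stretches that Ubqln2 shares with its paralogs bear on how its reads were counted. The longest identical stretch with each paralog, both in coding sequence, is shown in the Ubqln2 mRNA sense from the mouse transcript annotation:
Ubqln2 and Ubqln1: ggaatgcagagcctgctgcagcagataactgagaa
Ubqln2 and Ubqln4: tgcagatccagcaggg
They span 35 and 16 bases. No other protein-coding gene shared a 50-base word with the transcripts of Trip4 or Ubqln2 (0 genes in each case).

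The libraries differed widely in depth over the genes of the table. ELA input held 159587 and 410192 reads, ES input 5380139 and 3898414, and the Rpl10a-IP libraries between 16076207 and 23483388. ELA Input replicate 1, the shallowest, was left out of the study's calculation for poor correlation with the other libraries, low complexity and duplicated reads. Values without it are given beside the main ones for the pair and for some of the list counts only. Counts were normalised by the trimmed mean of M values (TMM) over the 8 libraries, so every level is relative to the other genes. Of the ES markers of naive pluripotency, 5 of 5 measured genes fell in total RNA, and both measured markers of primed epiblast, Dnmt3a and Dnmt3b, rose, by 0.70 ± 0.11 and 2.62 ± 0.10 (log2 ± SE). Of 3 general pluripotency genes, Pou5f1 fell in total RNA (-1.18 ± 0.11), Sall4 rose (0.25 ± 0.10) and Lin28a, at 0.11 ± 0.11, did not pass the test. Nes, the 1 measured gene of the list for other cell types and a marker of neural progenitors, also rose in total RNA by 2.51 ± 0.12, and its part in the results for Trip4 and Ubqln2 was not tested. Fewer cells of a type and less RNA per cell cannot be told apart in these bulk samples.

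In total RNA, Trip4 stood at 482 and 483 normalised counts in the ES input libraries and at 2719 and 2152 in the ELA input libraries. The group means were 482 ± 0.554 and 2435 ± 401 (SD, n = 2 each). Both ELA libraries thus lay far above both ES libraries. The ELA levels rest on 100 reads (95% Poisson interval 81.4 to 122) and 203 reads (176 to 233), and these intervals cover counting error only. The log2 change was 2.32 ± 0.12 (SE), the 46th highest of 3160 genes, and 2.16 ± 0.13 without ELA Input replicate 1.

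Ribosome-bound Trip4 RNA stood at 366 and 374 normalised counts in ES and at 321 and 307 in ELA cells, from 1045 to 1618 reads per library. The groups did not overlap, but they lay close together, with means of 369.7 ± 5.69 and 314 ± 10.1 (SD, n = 2 each). With 2 libraries a group, the lack of overlap says little. Over all 3160 genes, limma at adjusted p under 0.05 called bound RNA lower in 42.3%. The log2 change was -0.24 ± 0.10 (SE), a level 1.18-fold lower in ELA cells.

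Ubqln2 repeated this pattern at a lower level. Its total RNA stood at 300.5 and 341 normalised counts in ES input and at 1740.0 and 1314 in ELA input, with means of 321 ± 28.6 and 1527 ± 301 (SD, n = 2 each). Again the ELA libraries lay above both ES libraries. Only 64 reads (95% Poisson interval 49.3 to 81.7) and 124 reads (103 to 148) stand behind the ELA values. The log2 change was 2.24 ± 0.14 (SE), and 2.03 ± 0.14 without ELA Input replicate 1.

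Ribosome-bound Ubqln2 RNA stood at 252 and 281 normalised counts in ES and at 255 and 206 in ELA cells. Here the groups overlapped, since the first ELA library lay between both ES libraries. The log2 change of -0.21 ± 0.11 (SE) depended on single libraries: it was -0.06 without ELA Rpl10a-IP replicate 2, -0.14 without ES Rpl10a-IP replicate 2 and -0.37 without ELA Rpl10a-IP replicate 1. The change of total RNA was, in either case, many times larger.

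**Figure D1:**
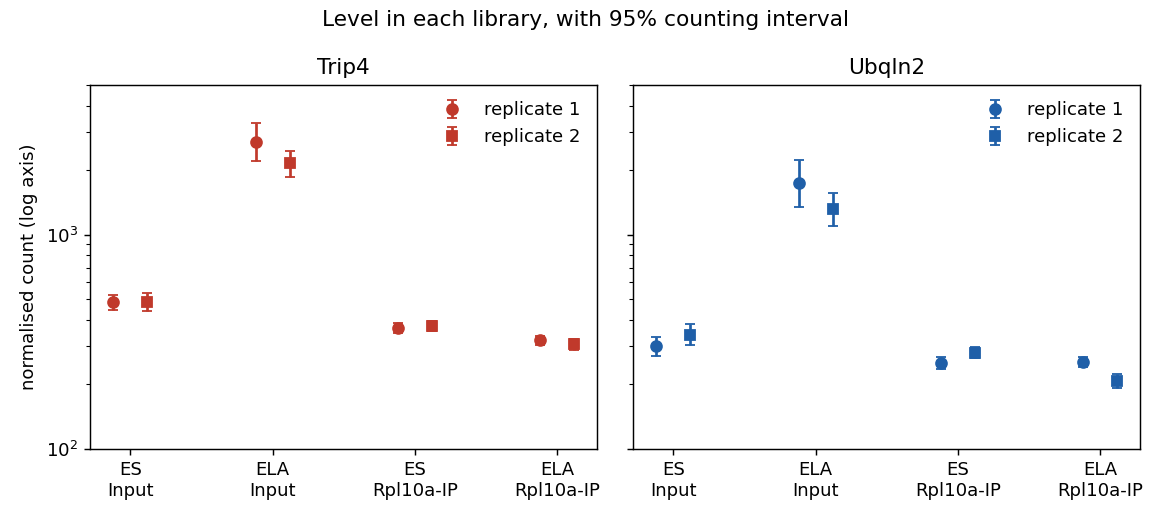
Normalised counts (log axis) of Trip4 and Ubqln2 in each library by group; each point is 1 replicate and bars are 95% Poisson intervals of its reads. Input levels rise from 482 and 483 to 2719 and 2152 for Trip4 and from 300.5 and 341 to 1740.0 and 1314 for Ubqln2, while the Rpl10a-IP points stay between 206 and 374.

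Levels of both genes can be set side by side per kilobase of transcript, taking the longest coding transcript of each (4211 bases for Trip4, 3306 bases for Ubqln2). In ES input the normalised count per kilobase was 114 ± 0.132 for Trip4 and 97.0 ± 8.65 for Ubqln2, and in ELA input 578 ± 95.2 and 462 ± 91.0 (mean ± SD, n = 2 each). In ELA Rpl10a-IP the levels per kilobase were 74.6 ± 2.40 and 69.7 ± 10.4, a difference below the spread of the Ubqln2 replicates. By reads, Trip4 moved from above 35.3% and 36.3% of genes in the ES input libraries to above 88.8% and 84.6% in the ELA input libraries. In Rpl10a-IP it was above 27.6% and 28.4% of genes in the ES libraries and above 23.0% and 21.9% in the ELA libraries.

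The ratio of Rpl10a-IP to input (ribosome enrichment) puts both changes into 1 number, and it is the measure by which the genes were picked. For Trip4 the ratio was 0.759 and 0.774 in the ES replicates and 0.118 and 0.143 in the ELA replicates, with means of 0.767 ± 0.0109 and 0.130 ± 0.0173 (SD, n = 2 each). Exact 95% counting intervals of the ELA ratios were 0.0965 to 0.146 and 0.123 to 0.167. For Ubqln2 it was 0.839 and 0.823 in ES and 0.146 and 0.157 in ELA cells, with means of 0.831 ± 0.0110 and 0.152 ± 0.00740. The ES ratios of both genes lay inside the middle 95% of all genes, which ran from 0.606 to 1.47 and from 0.641 to 1.40 in the ES replicates. In ELA cells only 2 and 3 of 3160 genes had a ratio below that of Trip4, and 5 and 6 a ratio below that of Ubqln2. The middle 95% of all genes was wider there, from 0.305 to 2.76 and from 0.306 to 2.86, beside the lower depth of the ELA input.

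**Figure D2:**
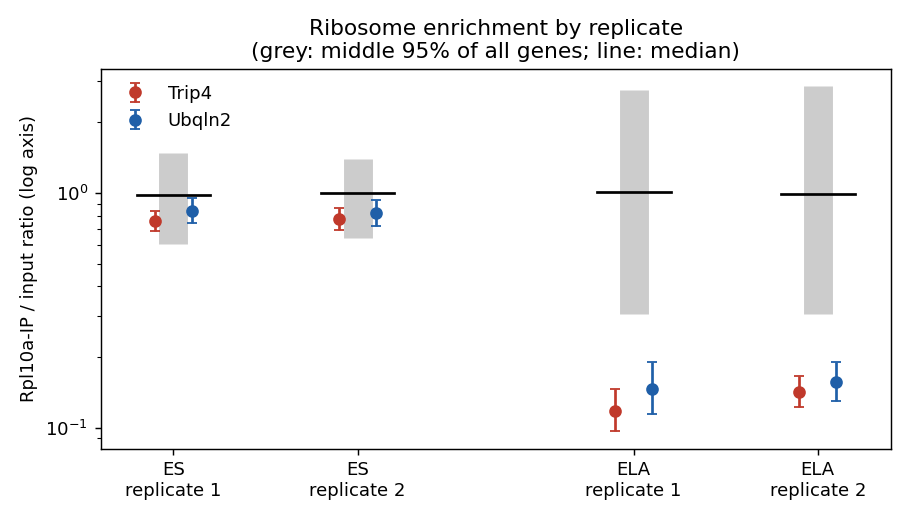
Ratio of Rpl10a-IP to input (log axis) for Trip4 and Ubqln2 in each replicate pair by number; bars are exact 95% counting intervals, grey bars the middle 95% of all 3160 genes and black lines their medians. Both genes sit within the grey range in ES cells (0.759 to 0.839) and below it in ELA cells (0.118 to 0.157).

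The change of ribosome enrichment, ELA minus ES on the log2 scale, was -2.56 ± 0.17 (SE) for Trip4 and -2.45 ± 0.20 for Ubqln2, the third and the fourth lowest of 3160 genes. Without ELA Input replicate 1 it was -2.39 ± 0.16 and -2.25 ± 0.18. Rps14, a small subunit ribosomal protein gene, and the linker histone gene Hist1h1a were lower, at -3.00 ± 0.25 and -2.59 ± 0.17. Tdgf1, a Nodal co-receptor of pluripotent cells, and Sfr1, a homologous recombination factor, came next above, at -2.30 ± 0.15 and -2.26 ± 0.15. Apart from Rps14, which stood further off, neighbours in this order differed by less than their SE. Their Rpl10a-IP levels changed by -2.22 for Rps14, -1.10 for Hist1h1a, -6.20 for Tdgf1 and -1.75 for Sfr1 (log2). Their total RNA changes were 0.78, 1.49, -3.89 and 0.51 in the same order, so none of the 4 had a total RNA change as high as Trip4 or Ubqln2.

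Among the 80 genes whose total RNA was higher in ELA cells by more than 2 on the log2 scale, ribosome-bound RNA was also higher in 78 by sign, and by more than 2 in 60. The median log2 change of bound RNA over the 80 genes was 2.67. Trip4 and Ubqln2 were the 2 genes with a lower value. Their bound RNA change is the total RNA change plus the change of the ratio they were picked for, so this restates their choice. For Ubqln2 the bound RNA groups overlapped. With a limit of 1 on the log2 scale, ribosome-bound RNA was lower in 23 of 332 genes. Over all 3160 genes, the changes in total and in bound RNA had a Pearson r of 0.75 (Spearman rho 0.67). This is a description across genes, which are not independent replicates.

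**Figure D3:**
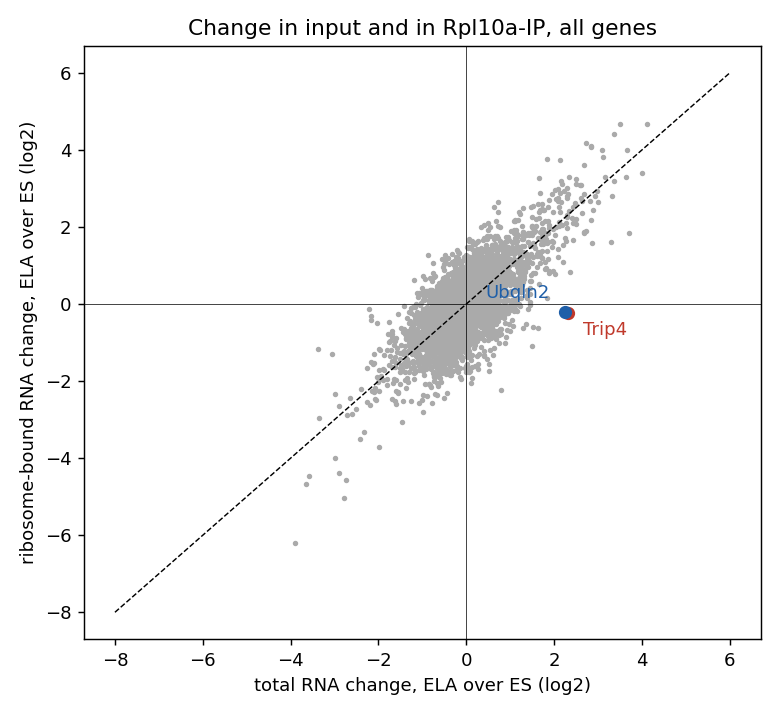
Change of total RNA (horizontal axis) against change of ribosome-bound RNA (vertical axis), ELA over ES in log2, for 3160 genes; the dashed line marks equal change. Trip4 and Ubqln2 sit far right of the line, at 2.32 and 2.24 on the horizontal axis and -0.24 and -0.21 on the vertical one.

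The mean stage change, the average of the change in input and the change in Rpl10a-IP, was 1.04 ± 0.09 (log2 ± SE) for Trip4 and 1.01 ± 0.10 for Ubqln2. It holds almost only the input change, which also enters the ratio that chose the genes, so no test is given.

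Trip4 and Ubqln2 were each other's most similar gene among all 3160, with a Pearson r of 0.996 over the 8 libraries (log2 of normalised count + 1). Since both were picked for the same fall, this is a description. Cyb5b, an outer mitochondrial membrane cytochrome, came second for both (r = 0.996 and 0.994). Next for Trip4 were Taf3, a TFIID subunit (0.990), the scaffold gene Strn (0.988) and the ubiquitin-conjugating enzyme gene Ube2k (0.988). Next for Ubqln2 were Scamp2, a secretory carrier membrane protein gene (0.990), Cmip (0.987) and Ctcf, which encodes an insulator protein (0.987). These 7 genes had the same shape but smaller amplitude: Strn had the smallest change of ribosome enrichment, -0.71, and Cmip the largest, -1.40 (log2).

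The nearest measured genes on the chromosomes did not share the pattern. Zfp609, which lies 1362 bp from Trip4, had a total RNA change of 0.66 ± 0.11 and a bound RNA change of 0.93 ± 0.10 (log2 ± SE; limma adjusted p = 4.2e-06 and 3.2e-21). Klf8, a Krüppel-like factor gene 99307 bp from Ubqln2, fell in both, with changes of -1.40 ± 0.14 and -1.28 ± 0.13. Its total RNA change rests on only 4 and 11 ELA input reads. The SE of that change, pooled over all groups, understates the counting error of so few reads, so no p-value is given for Klf8. The change of ribosome enrichment did not pass the test for either (0.28 ± 0.16 and 0.12 ± 0.20).

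Transcript length moved with the change of ribosome enrichment across genes (Pearson r = 0.48, Spearman rho 0.44 over 3119 genes with a length), shorter transcripts having lower values. Of the genes with a length, 59.4% of genes had a shorter transcript than Trip4 and 42.4% a shorter one than Ubqln2. Among 893 genes within 20% of the Trip4 length the median change was 0.07. Among 839 genes within 20% of the Ubqln2 length it was -0.07. The part of length in the fall of both genes was not tested. The GC content of the transcripts was 44.6% for Trip4 and 50.7% for Ubqln2, against a median of 48.0%.

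Pathway genes around Trip4 and Ubqln2 were followed in 8 lists, with 57 measured genes besides the pair. Their change of ribosome enrichment ran from -1.10 to 1.31, and their highest total RNA change was 1.82 (log2). Over all 3160 genes, limma at adjusted p under 0.05 called the change of ribosome enrichment higher in 28.4% and lower in 27.7%. The total RNA change was called higher in 34.5% and lower in 35.8%, and the bound RNA change higher in 41.1% and lower in 42.3%. The medians of all genes were 0.01, -0.02 and -0.02 (log2). The ELA input libraries held a median of 26 and 66 reads per gene, and the SEs of listed genes do not show that counting error in full.

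Around Trip4, the other ASC-1 complex genes and the UFMylation genes were not found in the table under their listed symbols, so they were not analysed here. Of 11 measured genes of ribosome-associated quality control, ribosome enrichment rose for 3 and fell for 1 (median 0.15), and bound RNA rose for 5 and fell for 2. Total RNA rose for 3 and fell for 3, or for 2 and 1 without ELA Input replicate 1. Gcn1l1, a sensor of collided ribosomes, rose in enrichment by 1.03 ± 0.17 (limma adjusted p = 4.7e-06). Ltn1, the ubiquitin ligase of stalled 60S subunits, rose by 0.69 ± 0.17, and Vcp, the ATPase that extracts its substrates, by 0.61 ± 0.15. Gnb2l1, the ribosomal scaffold also called Rack1, fell by 0.46 ± 0.15 (log2 ± SE). The total RNA changes of these 4 genes lay between -0.30 for Vcp and 0.34 for Gcn1l1. The highest total RNA changes of the list were those of Zak, a kinase that senses stalled ribosomes, at 1.82 ± 0.13, and Gigyf1, a translational repressor, at 1.19 ± 0.13 (limma adjusted p = 1.8e-14 and 2.8e-10), both named after their values were seen. Both also rose in bound RNA, by 1.83 ± 0.11 and 0.87 ± 0.11 (limma adjusted p = 3.7e-60 and 7.4e-15).

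Of 11 measured nuclear receptor coactivators, ribosome enrichment rose for 5 and fell for 1, or 2 without ELA Input replicate 1 (median 0.40). Total RNA rose for 5 and fell for 3, and bound RNA rose for 6 and fell for 3. Trrap, a scaffold of histone acetyltransferase complexes, rose in enrichment by 1.30 ± 0.17 and Nsd1, a histone H3 lysine methyltransferase, by 0.93 ± 0.15 (limma adjusted p = 7.5e-08 and 2.5e-06). Ncoa3, a p160 coactivator, rose in enrichment by 0.56 ± 0.16 while its total RNA fell, with a change of -2.09 ± 0.11. Rbm14, an RNA-binding coactivator, fell in enrichment (-0.77 ± 0.22), on 12 and 26 ELA input reads.

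Around Ubqln2, 2 other shuttle protein genes were measured, and total and bound RNA fell for both. Its paralog Ubqln4 fell in both fractions, with changes of -0.64 ± 0.11 in total RNA and -0.52 ± 0.10 in bound RNA (limma adjusted p = 7.5e-06 and 1.1e-07), and its change of enrichment, 0.12 ± 0.16, did not pass the test (limma adjusted p = 0.53). Rad23b, a shuttle that also serves in DNA repair, fell in enrichment, with a change of -0.51 ± 0.16 (limma adjusted p = 0.0058). Of 8 ubiquilin partners in chaperoning and endoplasmic reticulum-associated degradation, enrichment rose for 1 and fell for 2 (median -0.0017). Total RNA rose for 1 and fell for 3, or for 2 and 4 without ELA Input replicate 1, and bound RNA rose for 2 and fell for 5. The co-chaperone gene Stip1 fell in enrichment (-0.69 ± 0.15), as did Ubxn4, which recruits Vcp to the membrane (-0.74 ± 0.17). Sel1l, an adaptor of the ubiquitin ligase complex, rose by 0.47 ± 0.17, and the chaperone gene Bag6 had a change of -0.38 ± 0.18 that did not pass the test.

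The 19S regulatory particle, where ubiquilins dock, went the opposite way to Ubqln2 in total RNA: of 11 measured subunit genes, total RNA fell for 9 and bound RNA for 10. Their ribosome enrichment rose for 2 and fell for 4, with a median of -0.35. The ATPase gene Psmc6 and the lid subunit gene Psmd11 fell in enrichment, with changes of -1.04 ± 0.16 and -0.997 ± 0.153 (limma adjusted p = 1.3e-06 and 1.5e-06). Psmd3, another non-ATPase subunit gene, fell by 0.57 ± 0.19, and the deubiquitinase gene Psmd14 rose by 0.70 ± 0.17.

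Of 15 other genes whose human counterparts are mutated in amyotrophic lateral sclerosis or frontotemporal dementia, ribosome enrichment rose for 4 and fell for 6, or 7 and 7 without ELA Input replicate 1 (median 0.19). Total RNA rose for 4 and fell for 9, and bound RNA rose for 6 and fell for 7. Vapb, an endoplasmic reticulum tether, and Chmp2b, an endosomal sorting subunit, rose in total RNA and fell in bound RNA. Vapb rose in total RNA by 0.69 ± 0.14 and had a bound RNA change of -0.42 ± 0.10 (limma adjusted p = 3.6e-05 and 1.0e-04), and for Chmp2b these were 0.64 ± 0.13 and -0.38 ± 0.12 (8.5e-05 and 0.0013). Tbk1, a kinase of autophagy receptors, went the other way, with bound RNA up by 1.04 ± 0.10 and enrichment up by 1.31 ± 0.17. Its ELA input values rest on 14 and 35 reads. The actin binder gene Pfn1 fell, with changes of -1.42 ± 0.10 in bound RNA and -0.95 ± 0.20 in enrichment.

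**Figure D4:**
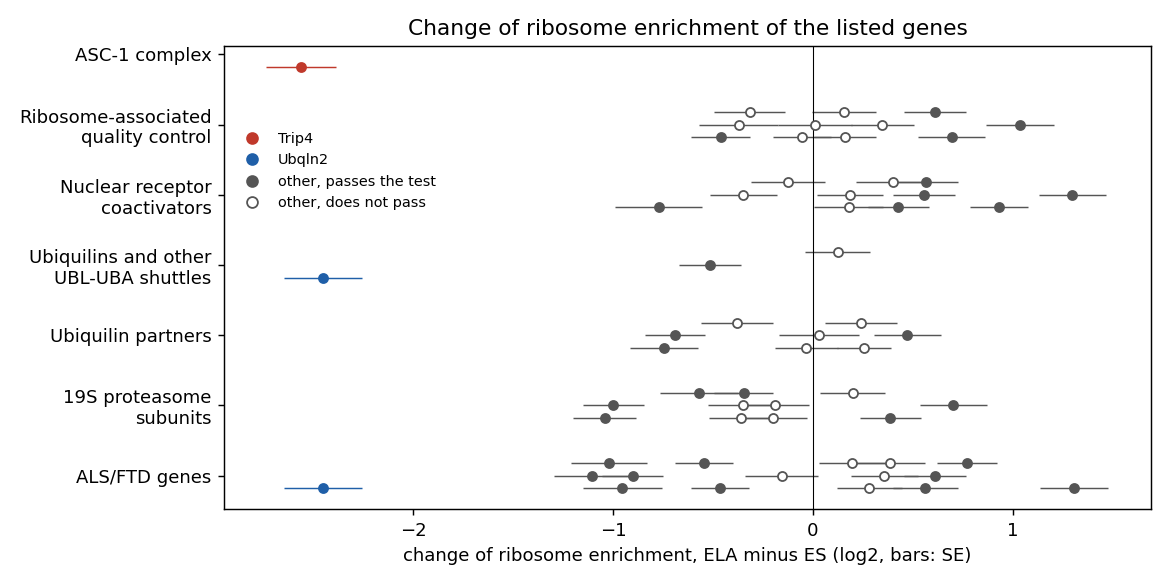
Change of ribosome enrichment, ELA minus ES in log2 with SE bars, for each measured gene of the lists; filled grey points passed the limma test, open ones did not, and vertical offsets only separate points. Trip4 (-2.56) and Ubqln2 (-2.45) were picked for this fall, and lie left of the 57 other listed genes. Those run from -1.10 to 1.31.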

How the data were processed

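Ribosome-depleted RNA of input and Rpl10a-IP was sequenced from 8 libraries, in 2 replicates per group. Per the study's methods and the labels, the authors mapped reads to the mm10 transcriptome with TopHat2, counted them per gene with HTSeq, normalised with DESeq2 and kept genes with sufficient mean counts and close replicates. The deposited signal values are reads divided by a size factor computed within each fraction. Whole reads were read back with a step fitted to all values of a library (100.0% of values whole within 0.01). A check that takes the lowest value as 1 read accepted ELA Input replicate 1 only, since the lowest gene of the 7 others had 2 to 82 reads, so read counts and intervals rest on the fitted steps. For the same reason count models were not used, and the planned edgeR fit was left out. The other 26 columns of the table hold the authors' means, ratios and fold changes and were not used.

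Reads were scaled by TMM factors over the 8 libraries (own code) and tested as log2(normalised count + 1) in limma 3.58.1 (R 4.3.3), with trend and Benjamini-Hochberg adjustment over 3160 genes. Bound RNA was fitted on 7 libraries, without ELA Input replicate 1. Fold changes on this scale understate those of low genes. The limma procedure was also run on simulated reads with the same dispersion for all genes, and that run does not vouch for the p-values here. The planned test of the mean stage change was not used, because ELA input was the noisiest group and also enters the ratio by which the genes were picked. The table's filter on close replicates makes adjusted p-values too small. The study's methods state that experiments were done in duplicate. Whether replicates were separate cultures is not given in the sources used here, so p-values speak for these samples only. Variances were pooled over groups and shrunk towards a trend over all genes, so the higher noise of ELA input is understated. For bound RNA this shrinkage was complete, so its SEs and p-values rest on that trend and not on a gene's own replicate spread. Total reads per library ran from 159587 to 23483388. Intervals cover counting error only.

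Trip4, Ubqln2 and the gene lists were chosen with earlier results of these data known. Named genes were, besides the pair, up to 4 genes per list that passed any test, by size of the change of ribosome enrichment, or all genes of lists with up to 4 measured. The 5 most similar genes, 2 neighbours in rank on each side and chromosomal neighbours were also named. Zak, Gigyf1 and the markers fall outside this rule, and Zak and Gigyf1 were chosen after their values were seen. Positions are from RefSeq (GRCm38.p6). Transcript lengths are from GENCODE M1, matched for 98.7% of genes. Alternatives were other scalings, a pseudocount of 0.1, a mean of at least 200, each library left out, a replicate block, and a length and GC correction.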

Additional observations from a re-analysis of the deposited data

Results flagged for a closer look

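Named genes of the lists, at most 4 per list, whose stage difference depended on the fraction by the limma interaction test are given with their change of ribosome enrichment (log2, ELA minus ES). Other listed genes also passed and are counted in the report. Among genes of ribosome-associated quality control, those named were Gcn1l1 (1.03), Ltn1 (0.69), Vcp (0.61) and Gnb2l1 (-0.46). Among 6 nuclear receptor coactivators that passed, those named were Trrap (1.30), Nsd1 (0.93), Ncoa3 (0.56) and Rbm14 (-0.77). Among shuttle genes and ubiquilin partners, they were Rad23b (-0.51), Ubxn4 (-0.74), Stip1 (-0.69) and Sel1l (0.47). Among 6 such 19S proteasome genes, the named ones were Psmc6 (-1.04), Psmd11 (-0.997), Psmd14 (0.70) and Psmd3 (-0.57). Among 10 such disease genes, the named ones were Tbk1 (1.31), Vapb (-1.10), Chmp2b (-1.02) and Pfn1 (-0.95). The values of Trip4 and Ubqln2 chose them and were not tested.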

How the results depend on the processing

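The change of ribosome enrichment stayed negative under the 17 alternatives run for each gene, between -2.73 and -2.37 for Trip4 and between -2.65 and -2.22 for Ubqln2. The ends nearest to 0 came from the ratio of means on 7 libraries, after the study's methods. Leaving out each library gave -2.73 to -2.39 and -2.65 to -2.25. The length and GC correction alone, chosen after seeing the data, gave -2.51 and -2.60. The mean stage change ran from 0.94 to 1.13 and from 0.90 to 1.11 under the 15 alternatives run.

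The deposited values were scaled within each fraction, so under their size factors input and Rpl10a-IP have no common level. Ribosome enrichment then turned positive by construction: 3.69 in ES and 1.12 in ELA for Trip4, and 3.80 and 1.35 for Ubqln2 (log2). Bound Trip4 RNA moved to -0.35. That scaling put the median gene at -0.12 in total and -0.14 in bound RNA. It lowered the share of calls that were higher from 49.1% to 41.7% for total RNA. Scaling by total reads lowered this share from 50.6% to 43.0% for the change of enrichment, with the median gene at -0.08. Counts of called genes stayed within 1.5 times: 1433 to 1938 for the change of enrichment (1775 in the reported fit), 1898 to 2299 for total RNA (2219) and 2404 to 2655 for bound RNA (2636).

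Same-numbered libraries were checked for pairing. Correlations of their deviations ran from -0.02 to 0.50, not all above 0.1, so the numbers were not taken to pair stages. Within a stage, where the study's methods take the input from the lysate used for the Rpl10a-IP, they were 0.50 in ELA and 0.17 in ES cells. With the replicate block the change of enrichment was -2.56 for Trip4 and -2.45 for Ubqln2, and 1894 genes were called. Adding the correction for length and GC to the replicate block gave -2.51 and -2.60, and 1659 genes were called. The planned edgeR and DESeq2 fits were not run. Depth limits the ELA input values most, at 64 to 203 reads for each gene.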
